A study of Arabidopsis thaliana with 8 samples.

Results

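A set of 3 nuclear genes of the plant's thiol and copper redox system were followed here: the type II peroxiredoxin AT3G52960, the sulfiredoxin SRX and the copper chaperone of superoxide dismutase CCS. They are the members whose array probe is annotated with exactly 1 gene, and each has 1 such probe, so they make up 3 of the 691 genes that single-gene probes measure. RNA came from wild-type Arabidopsis thaliana (WT) and from the tic40 mutant, both of ecotype Columbia 0, with 4 samples of each genotype numbered 1 to 4 and 1 array per sample. TIC40 helps to bring proteins through the inner membrane of the chloroplast envelope, and the comparison asks what changes at the RNA level when that import is impaired. Tissue, age, growth conditions and mutant allele are not in the labels. Since nothing marks the samples as separate plants either, the p-values below may reflect technical spread alone.

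Peroxiredoxins are thiol peroxidases that reduce hydrogen peroxide and alkyl hydroperoxides with a reactive cysteine. AT3G52960 encodes the type II peroxiredoxin of plastids, which is made in the cytosol and imported. When the cysteine of a typical 2-Cys peroxiredoxin is oxidised too far, the enzyme stalls, and sulfiredoxin spends ATP to bring it back. In Arabidopsis this repair enzyme is found in plastids and mitochondria. CCS hands copper to the copper/zinc superoxide dismutases of cytosol and plastid, which turn superoxide into the peroxide that peroxiredoxins then remove. In bulk RNA, fewer cells of a type and less RNA per cell cannot be told apart.

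The deposited table gives 1 intensity per probe and array on a relative linear scale, with array means of 1.03 to 1.12. Its array medians differ by up to 0.72 on the log2 scale, so levels are given after quantile normalisation, which gives all arrays the same distribution, and the other scalings are set beside them. Differences were fitted with limma over all 3318 probes above 0 on at least 1 array, and a probe was called at a Benjamini-Hochberg adjusted p under 0.05. Of all probes tested, 7.69% were called, 2.32% higher and 5.36% lower in tic40. Arrays carry no read depth, and their number limits the precision.

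The WT arrays did not form 1 group. After quantile normalisation WT samples 1 and 2 correlated at 0.947 across probes and WT samples 3 and 4 at 0.946, but the correlations between these pairs were only 0.707 to 0.722. The 4 tic40 arrays correlated at 0.934 to 0.975 with each other. They correlated at 0.874 to 0.907 with WT samples 1 and 2 and at 0.739 to 0.800 with WT samples 3 and 4. Each difference below is therefore also given without either WT pair. The labels give no reason for the split. No single-gene probe names TIC40, so the transcript of the mutated gene is not analysed here. None of 9 leaf and 7 root marker genes has a single-gene probe (0 in each list), so the tissue was not checked.

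Of the 3 genes, 1 was called lower in tic40 (CCS) and the others were not called. Of all probes, 5.36% were called lower and 7.69% in either direction. With the sample number as a block in the fit, none of the 3 was called (limma adjusted p = 0.0758 for CCS, 0.164 for AT3G52960 and 0.879 for SRX), and of all probes 0.151% were. All 3 were above 0 on all 8 arrays. After quantile normalisation, their lowest value relative to the floor used for zeros on the same array was 2.93 times that floor, for CCS on WT sample 2. As deposited that value was 7.11 times the floor, and the lowest was 4.09 times, for CCS on tic40 sample 4.

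The peroxiredoxin AT3G52960 was the gene of the 3 with the widest relative spread in WT after normalisation, where its SD was 75.8% of its mean, against 54.2% for SRX and 7.24% for CCS. As deposited the order of the first pair turned, with 67.5% for AT3G52960, 75.4% for SRX and 25.9% for CCS. Its normalised intensity was 1.68, 1.67, 0.314 and 0.383 in WT samples 1 to 4. In tic40 samples 1 to 4 it was 2.09, 2.004, 1.27 and 1.29. WT samples 3 and 4 were low, WT samples 1 and 2 lay inside the tic40 range, and the genotypes overlapped. The means were 1.01 ± 0.767 in WT and 1.66 ± 0.447 in tic40 (SD, n = 4 each). The fitted log2 difference, tic40 minus WT, was 1.08 with SE 0.60 and a 95% interval of -0.31 to 2.48, and it was not called (limma adjusted p = 0.304). When the sample number entered the fit as a replicate block, the limma adjusted p was 0.164. An exact two-sided permutation test over the 8 samples gave p = 0.286.

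The size of the peroxiredoxin difference depended on which WT arrays stood for the wild type. Between samples of the same number the log2 difference was 0.32 and 0.26 for numbers 1 and 2, but 2.01 and 1.75 for numbers 3 and 4. Fitted in samples 3 and 4 alone it was 1.88 (limma adjusted p = 0.00306), in a fit that called 25.3% of all probes higher. In samples 1 and 2 alone it was 0.29 (limma adjusted p = 0.0712), and that fit called 30.5% of probes. With all tic40 arrays and only WT samples 3 and 4 the difference was 2.22 (limma adjusted p = 0.00133, with 24.5% of probes called higher). With all tic40 arrays and only WT samples 1 and 2 it was -0.05 (limma adjusted p = 0.891, with 29.7% called). Whether the differences of the 2 sample pairs differ from each other was not tested. The pairs were chosen from the split seen in these same arrays. Fits of 2 against 2 arrays therefore measure only the spread within pairs. With the samples of each pair averaged, AT3G52960 was not called (limma adjusted p = 0.885).

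SRX, the repair enzyme, moved across WT samples in the opposite direction to AT3G52960. Its normalised intensity was 0.311, 0.273, 0.764 and 0.838 in WT samples 1 to 4. The tic40 values were 0.428, 0.425, 0.569 and 0.631 for samples 1 to 4. All 4 tic40 values lay between the low WT pair and the high WT pair. The means were 0.547 ± 0.296 in WT and 0.513 ± 0.103 in tic40 (SD, n = 4 each). The log2 difference was 0.07 with SE 0.40 and a 95% interval of -0.86 to 0.99 (limma adjusted p = 0.933, and 0.879 with the replicate block). That interval holds both a fall and a rise of nearly 1 on the log2 scale, so the data do not show that SRX was alike in the genotypes.

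The near-zero difference of SRX was the mean of opposite differences in the sample pairs. For numbers 1 and 2 tic40 lay above WT by 0.46 and 0.64 on the log2 scale, and for numbers 3 and 4 the difference was -0.42 and -0.41. The fit of samples 1 and 2 alone called it higher in tic40 (log2 difference 0.55, limma adjusted p = 0.0353), as it did 13.5% of probes. The fit of samples 3 and 4 alone called it lower (-0.42, limma adjusted p = 0.0330), as it did 34.9% of probes. Against WT samples 1 and 2 all 4 tic40 arrays together gave 0.80 (limma adjusted p = 0.0332, with 14.2% of probes called higher). Against WT samples 3 and 4 they gave -0.66 (limma adjusted p = 0.0329, with 30.7% of probes called lower). An exact two-sided permutation test over all 8 samples gave p = 0.83. Since the pairs were chosen from the split in these arrays, the calls in both directions rest on the spread within pairs. With the samples of each pair averaged, SRX was not called (limma adjusted p = 0.987).

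**Figure D1:**
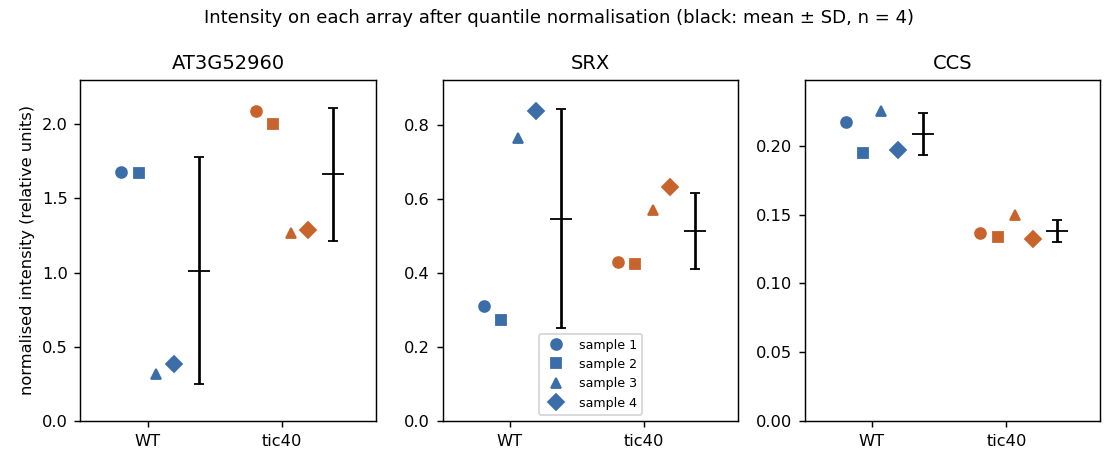
Normalised intensity (relative units, vertical axis from 0) of AT3G52960, SRX and CCS on each WT (blue) and tic40 (orange) array, with the sample number given by the symbol and the black bar showing mean ± SD of 4 samples. WT samples 3 and 4 sit low for AT3G52960 and high for SRX, while all 4 tic40 values of CCS (0.133 to 0.150) lie below all 4 WT values (0.195 to 0.226).

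CCS, the copper chaperone, had the tightest values of the 3 genes and was the one called. Its normalised intensity was 0.217, 0.195, 0.226 and 0.197 in WT samples 1 to 4. In tic40 samples 1 to 4 it was 0.137, 0.134, 0.150 and 0.133. The genotypes did not overlap, and the WT pairs were alike, unlike those of the other two genes. Of all probes, 12.6% lay lower in tic40 without overlap on this scale. The mean went from 0.209 ± 0.0151 to 0.138 ± 0.00797 (SD, n = 4 each), a WT level 1.51 times that of tic40. The log2 difference was -0.59 with SE 0.12 and a 95% interval of -0.88 to -0.31 (limma adjusted p = 0.0298). The exact two-sided permutation test gave p = 0.0286, which is the smallest that 4 against 4 samples allow. Any gene whose genotypes do not overlap reaches that p, so it only restates the lack of overlap. In either direction, 21% of all probes did not overlap.

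On the normalised scale, the CCS difference did not turn on the WT pairs. It was -0.67, -0.54, -0.59 and -0.57 between samples numbered 1 to 4. It was called in samples 1 and 2 alone (-0.61, limma adjusted p = 0.0259, with 17% of probes called lower) and in samples 3 and 4 alone (-0.58, limma adjusted p = 0.0222, with 34.9% called lower). Without WT samples 1 and 2 the difference was -0.61 (limma adjusted p = 0.00452, with 30.7% of probes called lower), and without WT samples 3 and 4 it was -0.58 (limma adjusted p = 0.0111, with 15.5% called lower). Here too the pairs were chosen from these arrays, and 2 against 2 arrays measure only the spread within pairs. With the samples of each pair averaged, CCS was not called (limma adjusted p = 0.885). The call was lost with the replicate block (limma adjusted p = 0.0758), which called 0.151% of all probes. It was also lost when any of WT samples 1, 3 and 4 or any tic40 sample was left out, with log2 differences of -0.63 to -0.56 and limma adjusted p-values of 0.0547 to 0.0937, and it was kept without WT sample 2 (-0.63, limma adjusted p = 0.0427, with 4.97% of probes called lower).

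**Figure D2:**
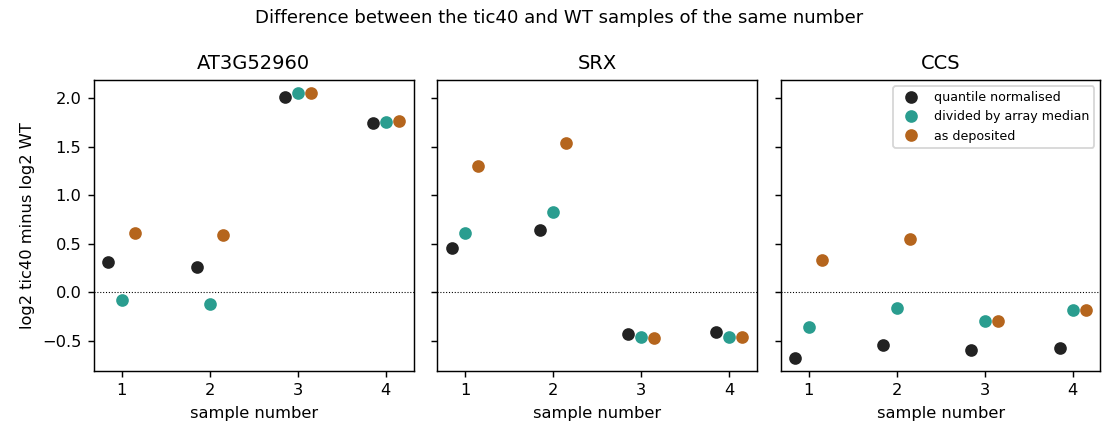
Log2 difference between the tic40 and the WT sample of the same number (horizontal axis, 1 to 4) for each gene, under quantile normalisation (black), division by the array median (green) and as deposited (brown). AT3G52960 rises to about 2 for numbers 3 and 4, SRX changes sign between numbers 2 and 3 under all 3 scalings, and CCS stays below 0 except for numbers 1 and 2 as deposited.

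The fall of CCS rested on the scaling. In the deposited intensities its values were 0.141, 0.119, 0.214 and 0.186 in WT samples 1 to 4. The deposited tic40 values were 0.178, 0.174, 0.174 and 0.165. On that scale the 4 tic40 arrays lay between the WT pairs, so the genotypes overlapped. The deposited means were 0.165 ± 0.0428 in WT and 0.173 ± 0.00557 in tic40 (SD, n = 4 each), with a log2 difference of 0.10 (95% interval -0.39 to 0.59, limma adjusted p = 0.824, exact permutation p = 0.629). As deposited, 10.8% of probes were called, 9.37% higher and 1.39% lower.

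Dividing each array by its own median gave a CCS result between these. In multiples of the array median, CCS was at 0.357, 0.301, 0.355 and 0.308 in WT samples 1 to 4 and at 0.279, 0.269, 0.291 and 0.273 in tic40 samples 1 to 4. All tic40 values again lay below all WT values, as they did for 12% of probes, but the gap was narrow. The log2 difference was -0.25 (95% interval -0.54 to 0.05) and was not called (limma adjusted p = 0.301, with 7.14% of probes called). The exact permutation p was 0.0286, which again only restates the lack of overlap. The median log2 difference over all probes tested was 0.32 as deposited, -0.02 after median division and -0.06 after quantile normalisation. Relative to that median, the CCS difference was -0.22 as deposited and -0.53 after quantile normalisation. Median division shifts all probes of an array alike, so it gives the same -0.22 by construction. A further 2 settings of the normalised data also ended the call: adding 0.1 before taking log2 (-0.37, limma adjusted p = 0.0613), and letting the variance follow intensity (-0.59, limma adjusted p = 0.0824).

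AT3G52960 kept its direction under the 3 scalings and was called under none. Its deposited intensity was 1.38, 1.37, 0.320 and 0.401 in WT samples 1 to 4 and 2.11, 2.06, 1.32 and 1.36 in tic40 samples 1 to 4. WT samples 3 and 4 stayed low on this scale as well, and WT samples 1 and 2 lay within the range of the 4 tic40 values. The log2 difference was 1.25 as deposited (95% interval 0.04 to 2.47, limma adjusted p = 0.172) and 0.90 after median division (95% interval -0.64 to 2.44, limma adjusted p = 0.460). In multiples of the array median it was at 3.49, 3.45, 0.533 and 0.664 in WT and at 3.31, 3.17, 2.21 and 2.24 in tic40. There the differences for numbers 1 and 2 were -0.08 and -0.12, so on that scale only numbers 3 and 4 had the higher tic40 level (2.05 and 1.76).

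SRX was not called under any of the 3 scalings with all 8 arrays. Its deposited intensity was 0.204, 0.174, 0.848 and 0.935 in WT samples 1 to 4 and 0.504, 0.503, 0.614 and 0.683 in tic40 samples 1 to 4. As on the normalised scale, each tic40 array lay between the low and the high WT pair. The log2 difference was 0.48 as deposited (95% interval -0.87 to 1.83, limma adjusted p = 0.679) and 0.13 after median division (95% interval -0.90 to 1.16, limma adjusted p = 0.885). In multiples of the array median it was at 0.517, 0.439, 1.41 and 1.55 in WT and at 0.791, 0.776, 1.02 and 1.13 in tic40. The sign of the difference between same-numbered samples was positive for numbers 1 and 2 and negative for numbers 3 and 4 under all 3 scalings.

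**Figure D3:**
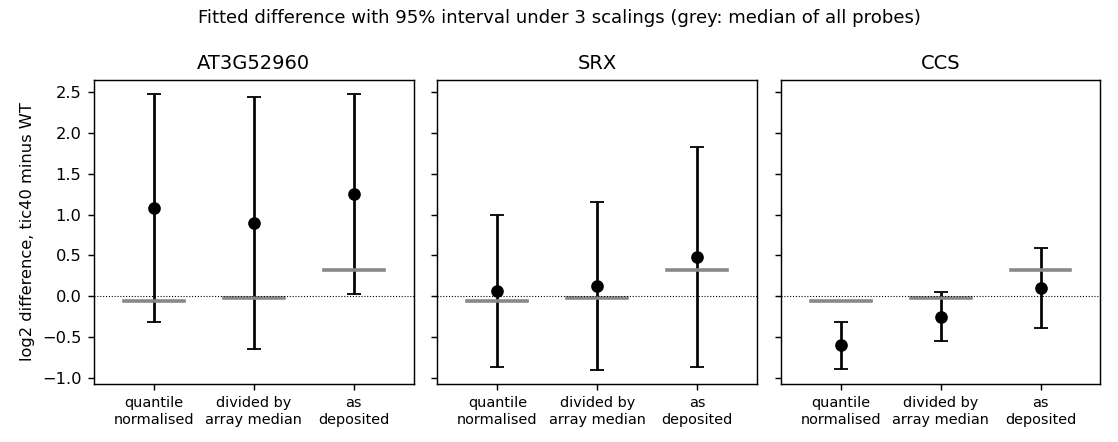
Fitted log2 difference, tic40 minus WT, with its 95% interval (limma, 4 arrays per genotype) for each gene under 3 scalings, and the median difference of all probes under that scaling as a grey bar. The interval of CCS excludes 0 after quantile normalisation only (-0.88 to -0.31), and that of SRX holds 0 under all 3.

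On the normalised scale the genes also differed in how far they moved between sample numbers within a genotype. These values are a description, since the split was seen in these arrays. From WT samples 1 and 2 to WT samples 3 and 4, AT3G52960 went from 1.68 to 0.348, a log2 difference of -2.27, and 6.03% of all probes tested differed by as much in either direction. SRX went from 0.292 to 0.801 (1.46), with 17.4% of probes differing as much. CCS stood at 0.206 and 0.212 (0.04), and 96.9% of probes differed as much or more. In tic40 the same contrast had the same sign for each gene on this scale. AT3G52960 went from 2.05 to 1.28 (-0.68) and SRX from 0.427 to 0.600 (0.49), both by less than in WT. CCS stood at 0.135 and 0.141 (0.06). As deposited, CCS was at 0.141 and 0.119 in WT samples 1 and 2 and at 0.214 and 0.186 in WT samples 3 and 4. The deposited tic40 values were 0.178 and 0.174, then 0.174 and 0.165, so CCS was higher in samples 3 and 4 in WT but not in tic40. The deposited arrays as wholes moved in the same directions. The log2 median of their positive values was -1.342 and -1.336 in WT samples 1 and 2, and -0.735 and -0.726 in WT samples 3 and 4. In tic40 samples 1 to 4 it was -0.650, -0.626, -0.739 and -0.725. This deposited pattern is therefore not particular to CCS.

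**Figure D4:**
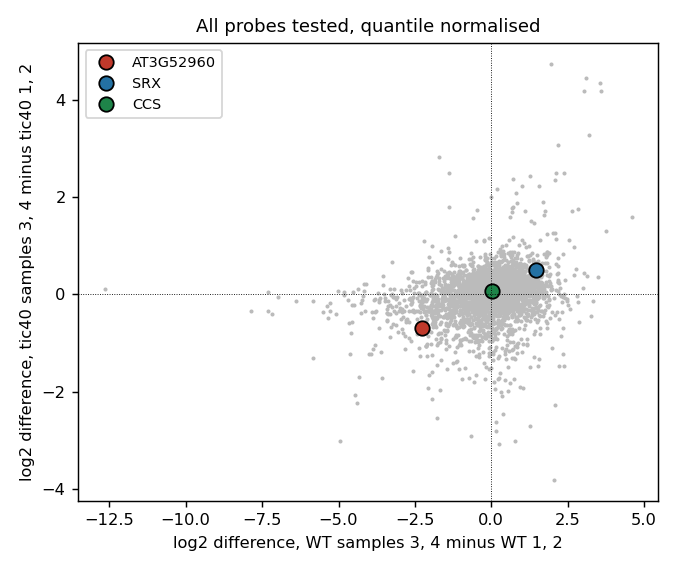
Log2 difference between samples 3 and 4 and samples 1 and 2 within WT (horizontal axis) and within tic40 (vertical axis) for all 3318 probes tested (grey) after quantile normalisation, with the 3 genes in colour. AT3G52960 lies at -2.27 in WT and -0.68 in tic40, SRX at 1.46 and 0.49, and CCS close to the origin.

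Other genes of the antioxidant and redox system were looked up from a list of 58 that covers peroxiredoxins, superoxide dismutases, the ascorbate-glutathione cycle, catalases, the thioredoxin system, methionine sulfoxide reductases and copper delivery and use. Single-gene probes measured 2 of them, both electron donors of the thioredoxin system, 7 were on probes annotated with several genes and are not named from them, and 49 are not analysed here. NTRC, the NADPH-dependent thioredoxin reductase that reduces the 2-Cys peroxiredoxins of plastids, stood at 0.623, 0.531, 1.01 and 0.932 in WT samples 1 to 4. Its tic40 values were 0.667, 0.677, 0.721 and 0.824. As for SRX, WT samples 1 and 2 were low and WT samples 3 and 4 high, with the tic40 arrays between them. Such a shift was common: 44.9% of all probes differed between the WT pairs as much as NTRC, against 17.4% for SRX. Its log2 difference was -0.06 (95% interval -0.59 to 0.48, limma adjusted p = 0.902).

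AT2G04700, which encodes the catalytic subunit of ferredoxin-thioredoxin reductase, the enzyme that passes electrons from ferredoxin to plastid thioredoxins, stood at 0.484, 0.611, 0.815 and 0.853 in WT samples 1 to 4. The tic40 values were 0.459, 0.477, 0.619 and 0.633. Each tic40 value was below the WT value of the same number on this scale, although the genotypes overlapped, and as deposited numbers 1 and 2 went the other way (log2 differences of 0.67 and 0.39). The log2 difference was -0.32 (95% interval -0.83 to 0.20, limma adjusted p = 0.415). Of the 2 list genes limma thus called 0 higher and 0 lower, and 0 had an unadjusted p under 0.05. Their median log2 difference was -0.19, beside -0.06 for all probes. Without WT samples 1 and 2 both were called lower, NTRC at -0.43 (limma adjusted p = 0.0245) and AT2G04700 at -0.62 (limma adjusted p = 0.0241), in the fit that called 30.7% of probes lower. Without WT samples 3 and 4 neither was called, with NTRC at 0.32 (limma adjusted p = 0.116) and AT2G04700 at -0.009 (limma adjusted p = 0.978). That fit called 29.7% of probes. In samples 3 and 4 alone AT2G04700 was called lower (-0.41, limma adjusted p = 0.0155), as were 34.9% of probes, and NTRC was not called (-0.33, limma adjusted p = 0.0654). In samples 1 and 2 alone NTRC had 0.22 (limma adjusted p = 0.221) and AT2G04700 -0.22 (limma adjusted p = 0.324), where 30.5% of probes were called. These fits also use pairs chosen from the split in these arrays.

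The genes whose profile over the 8 arrays came closest to each of the 3 were picked among 611 other single-gene probes above 0 on all arrays. Likeness was the root mean square difference of log2 values after each gene was centred on its own mean. Closest to AT3G52960 were AT3G56010 at 0.13, AT4G24930 at 0.17 and AT1G32220 at 0.20, where the median over all candidates was 1.11. SRX was closest to GH9B16 at 0.12, AT2G19870 at 0.17 and AT4G26770 at 0.19, with a median of 0.62. Closest to CCS were AT1G68660 at 0.09, AT4G33760 at 0.11 and AT4G18180 at 0.11, with a median of 0.46. These genes were chosen on the same 8 arrays, so their likeness in genotype difference or WT split follows from the choice.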

How the data were processed

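The labels give 8 one-channel arrays, 4 WT and 4 tic40. The deposited values are intensities on a linear scale, judged from the values, since the sources used here do not name a scanner, background correction or scaling. Zeros numbered 174 to 277 per array. Arrays were quantile normalised (limma 3.58.1, R 4.3.3), zeros were then set to percentile 1 of the positive values of the array (0.0147 to 0.0665), and of 3439 probes the 121 that read 0 on every array were dropped. limma (lmFit, eBayes) was fitted on log2 values with genotype as the only term, two-sided, with Benjamini-Hochberg adjustment over 3318 probes. It was tested on simulated data with independent arrays, without the WT split or the pairing. That test therefore cannot show how the fit performs with these features. The fits of sample pairs, 2 against 2 arrays, measure only the spread within pairs.

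Probe names come from the platform annotation: 692 probes name 1 gene, 870 several and 1877 none, and 690 of the 692 were matched in the TAIR10.1 gene table. The members, lists and settings were chosen with earlier results of these data known. Named genes are the 3 members, list genes with a single-gene probe, and the 3 nearest profiles of each member. Deviations of same-numbered samples from their genotype's mean correlated at 0.306, 0.310, 0.261 and 0.254, all above 0.1. By that check, from the data and not from the labels, the numbers pair the samples. The reported fit and the permutation tests leave the pairing out, and values from a fit that blocks on the sample number (replicate block) stand beside them. Other settings tried were median division, the table as deposited, cyclic loess, the replicate block, 1 common floor, a pseudocount of 0.1, a filter on zeros, an intensity trend, and leaving out arrays.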

Additional observations from a re-analysis of the deposited data

How the results depend on the processing

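Of 24 other settings per gene, the CCS difference (main -0.59) kept its direction and call in 8, kept its direction without the call in 14 and reversed in 2. Those 8 include the exact permutation test, which has no adjusted p and was counted at its unadjusted p of 0.0286. That p follows from the lack of overlap and is no separate support. They also include the fits of samples 1 and 2 alone, of samples 3 and 4 alone, and without either WT pair. These fits called 29.7% to 60.3% of all probes. It reversed as deposited, to 0.10, without the replicate block and with it (limma adjusted p = 0.824 and 0.822). On that scale the median of all probes was 0.32, and relative to it CCS was at -0.22. Median division gives the same value by construction, so the equality is no further evidence. The call ended with median division (-0.25, and adjusted p = 0.327 with the replicate block), with cyclic loess (-0.24, adjusted p = 0.319), with 0.1 added before log2 (-0.37), and, at -0.59, with the replicate block, the intensity trend and the averaging of sample pairs (adjusted p = 0.885). With cyclic loess the genotypes also overlapped for CCS, with WT sample 4 at 0.133 and tic40 sample 3 at 0.134. The exact permutation test there gave p = 0.0571. Leaving out single arrays gave -0.63 to -0.56 for CCS, 0.66 to 1.47 for AT3G52960 and -0.21 to 0.33 for SRX, whose sign turned without WT sample 1 (-0.15), WT sample 2 (-0.21) or tic40 sample 4 (-0.04). Without WT samples 3 and 4, AT3G52960 had -0.052 and SRX 0.80. Without WT samples 1 and 2 they had 2.22 and -0.66. In samples 1 and 2 alone SRX had 0.55, and in samples 3 and 4 alone AT3G52960 had 1.88 and SRX -0.42. The count of list genes called, 0 in the reported fit, was 1 in samples 3 and 4 alone and 2 without WT samples 1 and 2.

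The count of probes called, 255 in the reported fit, was 5 with the replicate block, 165 with cyclic loess, 1012 in samples 1 and 2 alone, 2000 in samples 3 and 4 alone, 1833 without WT samples 1 and 2 and 985 without WT samples 3 and 4. With the replicate block limma called 0 as deposited and 0 after median division, where 887 and 739 probes had an unadjusted p under 0.05. With sample pairs averaged it called 0, and 184 had an unadjusted p under 0.05. Leaving out single arrays gave 43 to 240. As deposited 311 probes were called higher and 46 lower, against 77 and 178 in the reported fit. The replicate block changed no other call of the 3 genes or the 2 list genes under the reported scaling. Cyclic loess and the replicate block under other scalings were chosen after seeing the data. The cause of these changes was not tested for any setting, and settings that leave out arrays also have fewer samples. Background readings are not part of the table, so how far dim CCS signals stand above background is unknown.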
